A study of Mus musculus with 11 samples.

Results

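The 43 genes described here encode subunits of 4 groups of chromatin complexes: NuRD (13 genes), Polycomb repressive complex 2 (PRC2, 5 genes), Polycomb repressive complex 1 (PRC1, 11 genes) and BAF with its PBAF variant (14 genes). They were taken by symbol from a list of complex subunits and kept where the authors' tables of normalised counts hold them. All 43 were present in at least 1 of these tables, among 12745 genes in all. The tables hold the genes that pass a filter on low counts, so membership required expression, but no difference between groups entered the rule. The list itself was chosen with earlier results of these data known. All 43 stood in the Tcf7 table and 42 of them in the Bcl11b table, the exception being Pcgf1, a PCGF subunit of PRC1.

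The study measured RNA in CD24-negative, TCRβ-negative mouse thymocytes, purified by cell sorting. The Bcl11b table, at postnatal day 0, held a pair of libraries for each of 3 genotypes, Bcl11b +/+, Bcl11b +/N440K and Bcl11b D/N440K. Every mutant library of that table carried 1 N440K allele, an amino acid change in the Bcl11b protein, beside either a + allele or the allele written D, which the labels do not define. The Tcf7 table, at postnatal day 7, held 2 libraries of Tcf7 +/+ and 3 that carry the label Tcf7 F/F:Vav1-Cre, in which a floxed Tcf7 gene meets a Cre recombinase driven by Vav1, a gene of blood cells. They are called the Vav1-Cre libraries here, after their label. The labels name neither the animals behind each library nor whether any were pooled, so p-values measure the spread between libraries, which may be technical.

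Total counts per library ranged from 999381 to 1842717. The Tcf7 +/+ pair stood apart. Its chi-square per degree of freedom, a measure of disagreement between replicates in which sampling noise alone gives about 1, was 4.94, while the other replicate pairs had 1.14 to 2.16. Among genes checked against the labels, Bcl11b had 641.4 and 505.6 CPM (counts scaled to library size, as the authors normalised them) in the Bcl11b +/+ pair, 185.2 and 225 in the +/N440K pair and 151.6 and 203.6 in the D/N440K pair. Tcf7 had 552.2 and 593.5 CPM in the Tcf7 +/+ pair and 846.7, 658.3 and 694.3 CPM in the Vav1-Cre libraries, so its level was no lower there. Counts over all exons cannot show a deletion of some of them. Cd24a, the gene of one sort marker, stood at 0 to 12.45 CPM, while Il2rb and Cd3e, T and innate lymphocyte genes, stood at 811.1 to 2139 and 150.9 to 508.4 CPM. In bulk RNA, fewer cells of a type and less RNA per cell cannot be told apart.

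NuRD joins a chromatin remodeller (Chd3 or Chd4) to histone deacetylases (Hdac1 or Hdac2) and represses genes, and Bcl11b is known to bind it. PRC2 places repressive methyl marks on histone H3 through Ezh1 or Ezh2, and PRC1 places ubiquitin on histone H2A through Ring1 or Rnf2. Canonical PRC1 reads the PRC2 mark through chromobox proteins such as Cbx7. BAF complexes use the ATPase Smarca2 or Smarca4 to slide or evict nucleosomes, and in early T cells these complexes take part in silencing stem-cell and B-cell programmes and in opening T-cell genes.

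The stretches of promoter sequence of 5 members are shown because these genes carried the main changes: Ring1, Rnf2 and Cbx7 of PRC1 in the N440K libraries, and Ezh2 and Suz12 of PRC2 in the Tcf7 table. They are RefSeq sequences of GRCm38.p6, written 5′ to 3′ on the strand of the gene, cut from the 250 bases before the RefSeq start and kept only where no GENCODE M21 exon of the gene lies. Ring1 is from chr17:34024681-34024930 (minus strand), Rnf2 from chr1:151500992-151501241 (minus strand), Cbx7 from chr15:79932769-79932896 (minus strand), Ezh2 from chr6:47595059-47595183 (minus strand) and Suz12 from chr11:79992856-79993105 (plus strand). Capitals mark matches to the GC box (GGGCGG), the CCAAT box (CCAAT), a TCF/LEF motif (CTTTGAA or CTTTGAT) and the BCL11A motif (TGACCA), each searched on both strands.
Ring1: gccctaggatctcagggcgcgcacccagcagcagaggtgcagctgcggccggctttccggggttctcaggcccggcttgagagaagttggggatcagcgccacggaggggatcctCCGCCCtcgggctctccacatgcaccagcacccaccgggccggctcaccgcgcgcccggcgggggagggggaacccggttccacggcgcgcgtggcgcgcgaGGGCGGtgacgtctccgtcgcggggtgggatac
Rnf2: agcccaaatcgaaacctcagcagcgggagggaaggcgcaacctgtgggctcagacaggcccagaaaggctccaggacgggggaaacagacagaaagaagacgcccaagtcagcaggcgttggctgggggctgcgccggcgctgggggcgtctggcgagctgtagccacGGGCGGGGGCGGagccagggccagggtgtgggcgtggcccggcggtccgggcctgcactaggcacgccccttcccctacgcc
Cbx7: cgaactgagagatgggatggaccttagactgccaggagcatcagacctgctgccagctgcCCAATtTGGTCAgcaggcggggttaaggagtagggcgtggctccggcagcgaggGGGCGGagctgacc
Ezh2: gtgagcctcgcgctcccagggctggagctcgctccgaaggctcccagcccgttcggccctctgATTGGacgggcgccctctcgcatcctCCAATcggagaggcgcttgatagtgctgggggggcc
Suz12: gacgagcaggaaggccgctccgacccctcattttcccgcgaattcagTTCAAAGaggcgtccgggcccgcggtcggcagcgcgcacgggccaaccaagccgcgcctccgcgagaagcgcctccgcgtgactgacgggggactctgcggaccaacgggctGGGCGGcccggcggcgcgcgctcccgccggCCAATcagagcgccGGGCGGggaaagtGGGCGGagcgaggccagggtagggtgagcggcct

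Of the 43 members, 35 matched a promoter in the RefSeq table of 32851, and the motif counts below are over all 250 bases. The GC box was in 28 of these 35 promoters, against 32.7% of all promoters in the table. CCAAT was in 13 of 35, against 33.8% of all. A TCF/LEF motif was in 2 of 35, against 7.48% of all, and Suz12 held one of them, written TTCAAAG on the gene's strand, 203 to 197 bases before the start. TGACCA was in 2 of 35, against 11.4% of all, and Cbx7 held one, written TGGTCA, 184 to 179 bases before the start and 1 base after a CCAAT box. Of the E2F motif only the forms TTTGGCGC and TTTCGCGC were searched, and they were in 0 of 35, against 0.654% of all. Other forms, such as TTTCCCGC, were not searched or marked, so this count does not show that E2F motifs are absent. The pair of E3 ligase genes, Ring1 and Rnf2, each held 2 GC boxes. These are matches of letters, not binding sites. For each member 1 promoter was counted, while the table was not limited to genes expressed here, so the shares are not a like comparison.

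Per length of exon, the subunits differed widely in level. In Bcl11b +/+, Mbd3, the NuRD subunit related to methyl-CpG-binding proteins, led at 94.74 ± 8.71 CPM per kb (mean ± SD, n = 2), close to Arid1a, the largest subunit of canonical BAF, at 94.47 ± 3.56. Smarca4 followed at 87.35 ± 1.76 CPM per kb. The lowest were Cbx8 at 5.556 ± 0.77, Bmi1 at 5.555 ± 1.3 and Pcgf5 at 3.208 ± 0.298 CPM per kb, all of PRC1. Mbd3 and Arid1a, and likewise Cbx8 and Bmi1, did not differ beyond their spread. In Tcf7 +/+, Chd4 (81.91 ± 14.8), Smarca4 (74.29 ± 3.49) and Arid1a (67.53 ± 8.32 CPM per kb) led, with neighbours in that order within 1 SD of the more variable one. The lowest there were again PRC1 genes, Pcgf1 (4.614 ± 0.243), Pcgf5 (4.574 ± 1.17) and Cbx8 (4.064 ± 0.109 CPM per kb).

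Fold changes below are log2 values ± SE from edgeR's quasi-likelihood fit over all genes of a table, and a gene is called past the test at a Benjamini-Hochberg adjusted p under 0.05. Where groups of a called gene are said not to overlap, this describes the same values and adds no support to the call. The share of all genes whose groups do not overlap was not counted. The comparison of +/N440K with +/+ asked what the mutant allele does beside a wild-type one. Of 42 members tested 5 were called, 2 higher and 3 lower, which is 11.9% of them, and edgeR called 10.1% of all tested genes (4.79% higher and 5.3% lower). In D/N440K against +/+, 5 of 42 were called, 2 higher and 3 lower, again 11.9%, where edgeR called 12.4% of all genes (6.1% higher and 6.31% lower). Both shares are near that of all genes. These comparisons share the Bcl11b +/+ libraries, so they are not independent of each other. In each of them 3 of the 5 called members were PRC1 genes, and they were Ring1, Rnf2 and Cbx7 in both.

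Ring1 and Rnf2 (RING1B) are the alternative E3 ubiquitin ligases of PRC1, and their levels moved in opposite directions. Ring1 (ENSMUSG00000024325) had 21.48 and 28.23 CPM in the +/+ pair, 48.15 and 38.49 in the +/N440K pair and 47.96 and 43.77 in the D/N440K pair. Each mutant library lay above each +/+ library. It rose by 0.79 ± 0.246 in +/N440K (edgeR's adjusted p = 0.02969) and by 0.87 ± 0.245 in D/N440K (edgeR's adjusted p = 0.01188). These values rest on 21 and 34 counts in +/+ and 39 to 59 in the mutant libraries. Rnf2 (ENSMUSG00000026484) had 92.07 and 101.3 CPM in the +/+ pair, 59.57 and 76 in the +/N440K pair and 59.95 and 65.14 in the D/N440K pair. Here each mutant library lay below both +/+ libraries, with log2 fold changes of -0.53 ± 0.161 (edgeR's adjusted p = 0.02541) and -0.64 ± 0.165 (edgeR's adjusted p = 0.005504). Rnf2 exons overlap those of Trmt1l on the other strand, which did not pass (-0.31 and -0.20).

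The calls of both ligases rested on few libraries. With DESeq2 neither passed in +/N440K (DESeq2's adjusted p = 0.466 for Ring1 and 0.5152 for Rnf2) or in D/N440K (DESeq2's adjusted p = 0.2655 and 0.2275). Without +/+ replicate 1 Ring1 fell short in both comparisons (edgeR's adjusted p = 0.2427 and 0.138), as it did without +/N440K replicate 1 (0.61, edgeR's adjusted p = 0.2549) and without D/N440K replicate 1 (0.80, edgeR's adjusted p = 0.1159). Rnf2 fell short without +/+ replicate 2 (edgeR's adjusted p = 0.2337 and 0.09281), without +/N440K replicate 1 (-0.35, edgeR's adjusted p = 0.3132) and without D/N440K replicate 1 (-0.57, edgeR's adjusted p = 0.08918).

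Cbx7, a chromobox subunit that binds the PRC2 mark, was the firmest call among the members in both N440K comparisons. Cbx7 (ENSMUSG00000053411) had 97.19 and 82.19 CPM in the +/+ pair, 151 and 137.2 in the +/N440K pair and 137.9 and 145.5 in the D/N440K pair. The 4 mutant libraries lay above both +/+ libraries. It rose by 0.70 ± 0.137 in +/N440K (edgeR's adjusted p = 0.0003166) and by 0.67 ± 0.139 in D/N440K (edgeR's adjusted p = 0.0004945). Both calls held in all 16 alternatives run, with edgeR, limma or DESeq2 adjusted p at most 0.04355 and 0.04556. DESeq2 called no other member in either comparison. The exons of Cbx7 overlap those of Apobec3 on the opposite strand, and Apobec3 rose too, by 0.57 (edgeR's adjusted p = 8.853e-06) and 0.89 (edgeR's adjusted p = 3.012e-10). Counting was not stated to use strand, so reads in the exon stretch that the 2 genes share may not be told apart. The part of Apobec3 reads in the rise of Cbx7 was not tested.

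The other PRC1 genes were not past the test in the N440K libraries. Bmi1, the PCGF partner of canonical PRC1, had 18.41 and 25.74 CPM in the +/+ pair, 11.42 and 19.74 in the +/N440K pair and 11.13 and 13.23 in the D/N440K pair. D/N440K libraries lay below +/+ libraries, at -0.88 ± 0.363, but the test was not passed (edgeR's adjusted p = 0.1129), on 18 and 31 counts in +/+ and 13 in each D/N440K library. Over the 10 PRC1 genes tested the median log2 fold change was 0.01 in +/N440K and -0.11 in D/N440K, with a median of 0 over all genes in each.

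**Figure D1:**
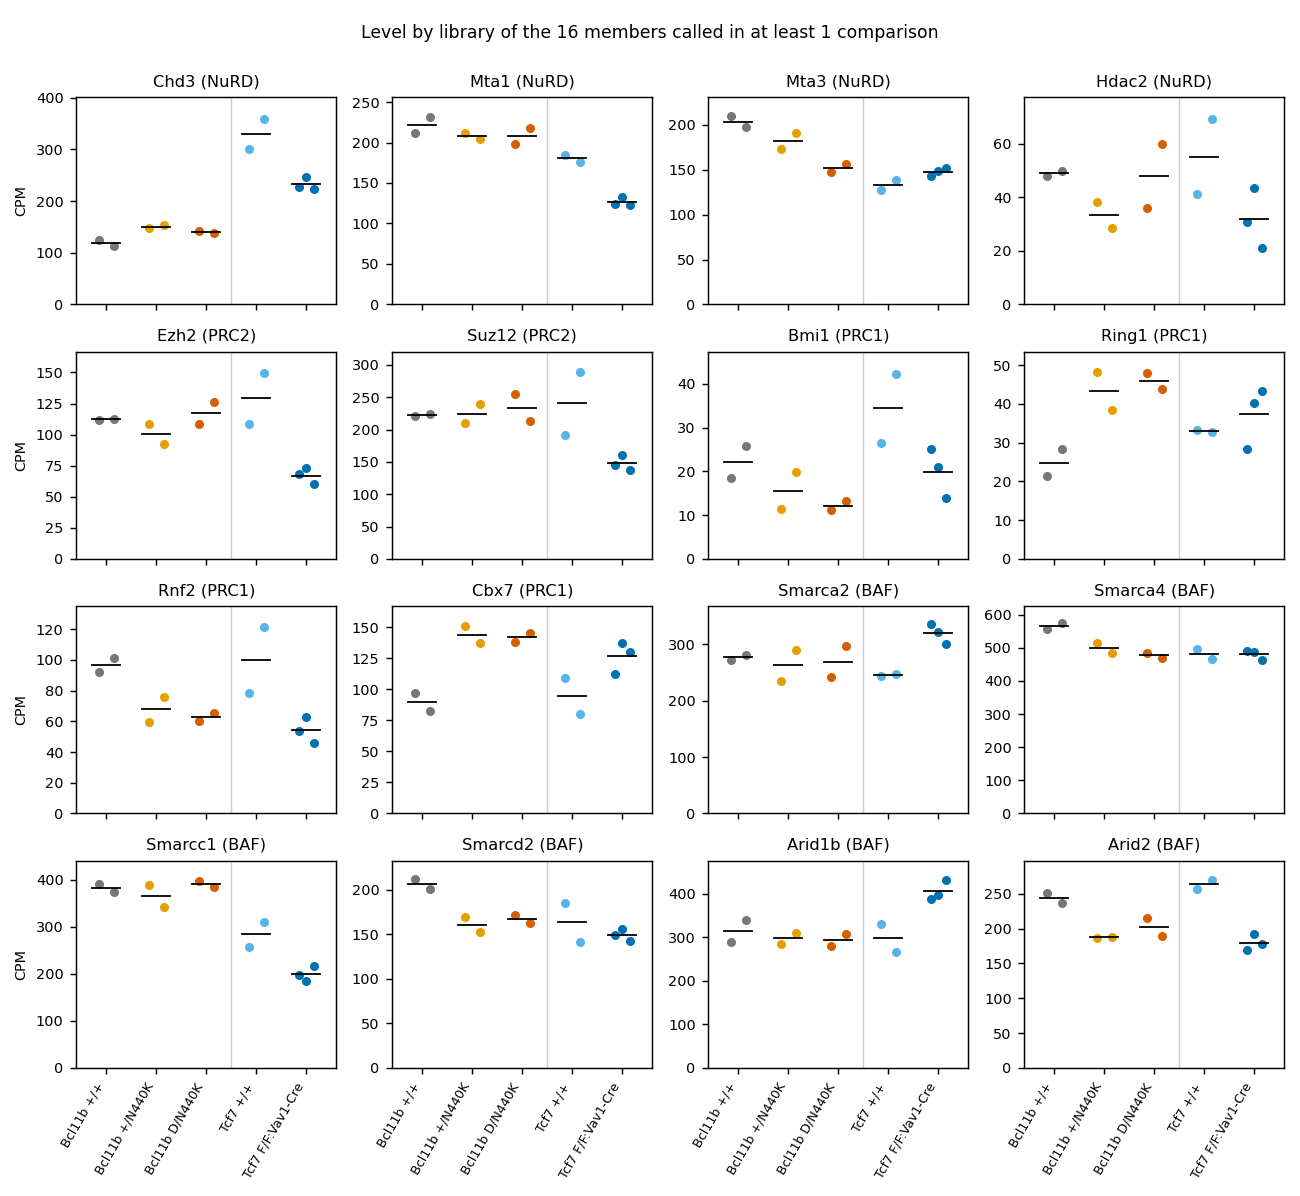
Level by library of the 16 members called in at least 1 of the 4 comparisons, in CPM on linear axes from 0. Points are libraries and bars are group means; a grey line parts the Bcl11b table (postnatal day 0) from the Tcf7 table (postnatal day 7), which were normalised apart. Cbx7 lies at 82.19 and 97.19 CPM in Bcl11b +/+ and at 137.2 to 151 in the 4 N440K libraries, while Ezh2 drops to 60.09 to 72.89 CPM in the Vav1-Cre libraries alone.

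Among the BAF members, 2 were lower in +/N440K and 1 in D/N440K. Arid2, which marks the PBAF variant, had 251.7 and 237.4 CPM in the +/+ pair, 186.1 and 188.5 in the +/N440K pair and 215 and 189.3 in the D/N440K pair. It fell by 0.38 in +/N440K (SE 0.106, edgeR's adjusted p = 0.01365) and was not past the test in D/N440K (-0.27). Smarcd2, a BAF core subunit, had 211.8 and 200.9 CPM in the +/+ pair, 168.9 and 152 in the +/N440K pair and 172.1 and 162.8 in the D/N440K pair. All 4 mutant libraries lay below +/+ for both genes, but Smarcd2 passed in +/N440K alone (-0.35 ± 0.113, edgeR's adjusted p = 0.03583, against -0.30 in D/N440K). Direct tests of D/N440K against +/N440K called neither gene. Smarca4 (BRG1), the main ATPase, had 557.5 and 573.7 CPM in the +/+ pair, 514.9 and 483.6 in the +/N440K pair and 484.7 and 469.2 in the D/N440K pair. Its fall of 0.25 in D/N440K (SE 0.078, edgeR's adjusted p = 0.02882) was the smallest called change among the members, and it stood at -0.18 ± 0.0771 in +/N440K, not past the test.

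Arid2 lost its call without +/+ replicate 1 (-0.34, edgeR's adjusted p = 0.1294) or +/N440K replicate 1 (-0.37, edgeR's adjusted p = 0.06411), Smarcd2 without either +/+ library (edgeR's adjusted p = 0.2223 and 0.09311) or +/N440K replicate 2 (-0.28, edgeR's adjusted p = 0.2338), and Smarca4 without any 1 of the 4 libraries compared (edgeR's adjusted p = 0.08021 to 0.2005). Smarcd2 also fell short without a filter on low counts (edgeR's adjusted p = 0.06696), and Smarca4 with the replicate number as a block (edgeR's adjusted p = 0.05121). The other ATPase, Smarca2 (BRM), had 273.1 and 280.6 CPM in the +/+ pair, 235.8 and 290.2 in the +/N440K pair and 241.5 and 297.2 in the D/N440K pair, so the groups overlapped. Median log2 fold changes over the 14 BAF genes were -0.09 in +/N440K and -0.08 in D/N440K.

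NuRD, the complex that Bcl11b recruits, gave 0 calls of 13 by edgeR in +/N440K, where 2 had an unadjusted p under 0.05 and DESeq2 and limma-voom called 0, and 1 call in D/N440K. Mta3, a subunit that tethers the deacetylases, had 209.7 and 197.6 CPM in the +/+ pair, 173 and 190.5 in the +/N440K pair and 147.3 and 156.7 in the D/N440K pair. The 3 groups did not overlap and lay in that order. It fell by 0.42 in D/N440K (SE 0.115, edgeR's adjusted p = 0.009293), and fell short without +/+ replicate 1 (-0.38, edgeR's adjusted p = 0.09772), without D/N440K replicate 1 (-0.37, edgeR's adjusted p = 0.142) and with DESeq2 (DESeq2's adjusted p = 0.2237). In +/N440K it stood at -0.17 ± 0.111, not past the test.

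The catalytic subunits of NuRD were not past the test. Chd4, its main remodeller, had 539.1 and 554.6 CPM in the +/+ pair, 532.1 and 524.1 in the +/N440K pair and 533.6 and 523.1 in the D/N440K pair, a log2 fold change of -0.05 in each comparison with an SE of 0.0761 and 0.0765. Chd3 had 124.8 and 112.9 CPM in the +/+ pair, 146.9 and 154 in the +/N440K pair and 142.2 and 137.4 in the D/N440K pair. Its libraries lay apart from +/+ (0.34 and 0.24), without a call. Hdac1 had 54.22 and 52.3 CPM in the +/+ pair, 60.39 and 50.34 in the +/N440K pair and 55.67 and 52.93 in the D/N440K pair. Hdac2 had 48.08 and 49.81, then 38.35 and 28.62, then 35.97 and 60.05 CPM, with a wide D/N440K pair. The median over the 13 NuRD genes was 0.01 in +/N440K and -0.05 in D/N440K.

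PRC2 gave 0 calls of 5 by edgeR, DESeq2 or limma-voom in either N440K comparison, and 0 at an unadjusted edgeR p under 0.05, with medians of 0.01 and 0.06. Ezh2, the methyltransferase of dividing cells, had 111.5 and 112.9 CPM in the +/+ pair, 108.5 and 92.78 in the +/N440K pair and 108.8 and 126.2 in the D/N440K pair. Ezh1, its counterpart in resting cells, had 125.8 and 103.8, then 111.8 and 109.6, then 125.9 and 108.9 CPM. Both overlapped between +/+ and D/N440K. Proliferation genes, 19 of 19 tested, summed to 4248 and 4522 CPM in the +/+ pair, 4412 and 4558 in the +/N440K pair and 4633 and 4770 in the D/N440K pair. Of these, 0 passed by edgeR, DESeq2 or limma-voom in +/N440K, where 5 had an unadjusted edgeR p under 0.05, and 4 rose and 1 fell in D/N440K.

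Directly compared, D/N440K and +/N440K differed in 0 of 42 members by edgeR, where edgeR called 0.532% of all genes (0.284% higher and 0.247% lower). DESeq2 and limma-voom also called 0. At an unadjusted edgeR p under 0.05 there was 1 member, Mta3 (-0.26), against 7.8% of all genes. The estimates ran from -0.33 in Bmi1 to 0.47 in Hdac2. The complex medians were -0.04 (NuRD), 0.09 (PRC2), -0.01 (PRC1) and 0.01 (BAF).

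Marker genes of T-lineage and other cells moved in the N440K libraries. Of 11 T-lineage and sort genes 5 fell and 1 rose in each comparison with +/+ (medians -0.37 in +/N440K and -0.24 in D/N440K), while their sum was 3821 to 4111 CPM over the 6 libraries. Cd3e, Trdc, Trbc2 and Cd24a fell in both, Cd3g in +/N440K and Trac in D/N440K, and Il2rb rose in both. Between D/N440K and +/N440K 2 of the 11 fell (Cd3e and Trdc) and 1 rose (Cd3g). Myeloid genes, 5 of 7 tested, summed to 126.8 and 167.8 CPM in the +/+ pair, 226 and 267.5 in the +/N440K pair and 310.9 and 320.6 in the D/N440K pair. Of these 2 rose in +/N440K and 3 in D/N440K, while S100a9 had 0 counts. Erythroid genes, 4 of 7 tested, summed to 27.4 and 57.29 CPM in the +/+ pair, 10.86 and 26.92 in the +/N440K pair and 86.5 and 107.9 in the D/N440K pair, where 3 rose. B-cell genes were near absent, since Pax5 and Ms4a1 had 0 counts in this table and 1 of 6 genes was tested, which fell in D/N440K. Dendritic genes, 6 of 6 tested, summed to 266.8 to 557.7 CPM over the 6 libraries, with 1 rise and 1 fall in each N440K comparison. Their part in the members' changes was not tested.

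**Figure D2:**
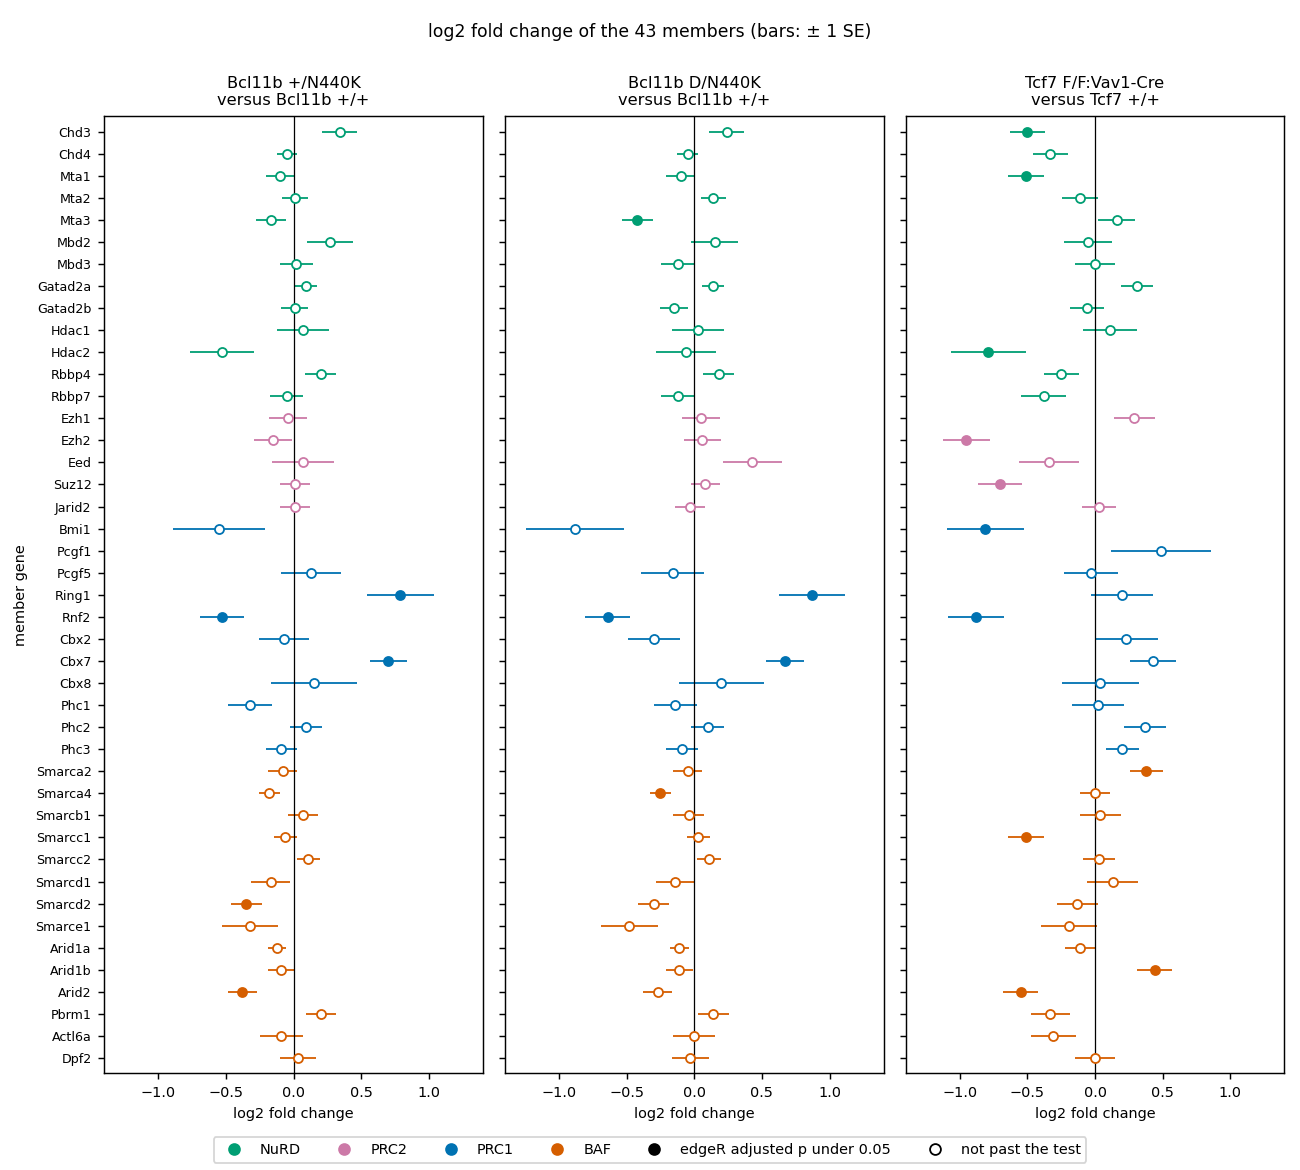
Log2 fold change of each member with bars of ± 1 SE, by complex, in 3 comparisons; filled points passed the edgeR test at an adjusted p under 0.05 and open points did not. Pcgf1 has no value in the Bcl11b table. In both N440K panels Ring1 and Cbx7 stand to the right and Rnf2 to the left, and in the Tcf7 panel the filled points are left of 0 except Smarca2 and Arid1b.

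In the Tcf7 table, the Vav1-Cre libraries were compared with Tcf7 +/+, a contrast that the labels tie to Tcf7, an HMG-box factor of early T cells. The level of Tcf7 itself, given above, does not show its loss. Of 43 members 11 were called, 2 higher and 9 lower, which is 25.6%, and edgeR called 23.2% of all tested genes (12% higher and 11.1% lower). The share of members called was again near that of all genes. Of the 9 that fell, 3 were NuRD genes (Chd3, Mta1 and Hdac2), 2 PRC2 (Ezh2 and Suz12), 2 PRC1 (Rnf2 and Bmi1) and 2 BAF (Smarcc1 and Arid2). The 2 that rose, Smarca2 and Arid1b, were both BAF genes. No member passed a log2 fold change of 1 in either direction.

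Among the members, PRC2 held the largest change. Ezh2 (ENSMUSG00000029687) had 108.8 and 149.9 CPM in the Tcf7 +/+ pair and 67.93, 72.89 and 60.09 in the Vav1-Cre libraries. Suz12 (ENSMUSG00000017548), the scaffold that PRC2 is built on, had 192.1 and 289.1 CPM against 144.8, 160.5 and 137.4. For both genes the groups did not overlap, although the +/+ pair was wide, with replicate 2 the higher. Ezh2 fell by 0.95 (SE 0.174, edgeR's adjusted p = 0.0006428) and Suz12 by 0.70 (SE 0.162, edgeR's adjusted p = 0.004238). Ezh2 was past the test in all 14 alternatives, with values of -1.16 to -0.70. Suz12 was past it in 13, the exception being the fit without a filter on low counts (edgeR's adjusted p = 0.05713), and moved to -0.38 without +/+ replicate 2 and to -0.97 without +/+ replicate 1.

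The other PRC2 members did not pass. Eed, which reads the methyl mark, had 38.88 and 57.49 CPM in the Tcf7 +/+ pair and 31.54, 41.81 and 39.5 in the other group (-0.34 ± 0.224). Ezh1 had 103.7 and 121.7 CPM against 127, 148.6 and 137.4 (0.29 ± 0.15), higher in all 3 Vav1-Cre libraries. Jarid2, an accessory subunit, stood at 0.03 ± 0.123. The PRC2 median was -0.34, against -0.01 over all genes, and ranged from -0.59 to -0.03 as single libraries were left out.

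In PRC1, Rnf2 fell here as well. It had 78.32 and 121.2 CPM in the Tcf7 +/+ pair and 53.37, 62.72 and 46.18 in the Vav1-Cre libraries, without overlap (-0.88 ± 0.206, edgeR's adjusted p = 0.004622). Bmi1 had 26.48 and 42.27 CPM against 25.07, 20.91 and 13.91, close to each other but without overlap (-0.81 ± 0.284, edgeR's adjusted p = 0.04812). Ring1 had 33.25 and 32.69 CPM against 28.3, 40.12 and 43.39, which overlap (0.20). Cbx7 had 108.8 and 80.04 CPM against 112.4, 137.3 and 130.2, without overlap and not past the test (0.43 ± 0.168). Rnf2 lost its call without +/+ replicate 2 (-0.53, edgeR's adjusted p = 0.05734) and with no filter (edgeR's adjusted p = 0.05805), and Bmi1 lost it in 10 of 14 alternatives, among them leaving out +/+ replicate 2 (-0.44, edgeR's adjusted p = 0.3857) or any of the 3 Vav1-Cre libraries (edgeR's adjusted p = 0.05317 to 0.2376).

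NuRD genes were lower where they were called. Chd3 had 300.9 and 359 CPM in the Tcf7 +/+ pair and 228, 247.5 and 223.7 in the Vav1-Cre libraries (-0.50 ± 0.129, edgeR's adjusted p = 0.008877). Mta1 had 184.8 and 176.4 CPM against 124.5, 132.8 and 122.4 (-0.51 ± 0.136, edgeR's adjusted p = 0.0111). Hdac2 had 41.13 and 69.33 CPM against 30.73, 43.51 and 21.14 (-0.79 ± 0.277, edgeR's adjusted p = 0.04731). Chd3 and Mta1 were clear of overlap, and Hdac2 was the called member of this comparison whose groups overlapped. Chd3 and Mta1 lost their calls without replicate 1 (edgeR's adjusted p = 0.05434 and 0.05978) or replicate 3 (edgeR's adjusted p = 0.0678 and 0.06406) of the Vav1-Cre libraries, and Hdac2 in 9 of 14 alternatives, among them without +/+ replicate 2 (-0.37, edgeR's adjusted p = 0.4226), without replicate 1 (edgeR's adjusted p = 0.132) and without replicate 3 (-0.55, edgeR's adjusted p = 0.2436). With the replicate number as a block Chd3 and Mta1 also lost their calls (edgeR's adjusted p = 0.07828 and 0.09281). Chd4 had 573.1 and 740.6 CPM against 591.1, 505.1 and 476.8, which overlap, and was not past the test (-0.33 ± 0.132, edgeR's adjusted p = 0.08526). Hdac1 had 41.13 and 45.09 CPM against 46.9, 49.16 and 43.95 (0.11 ± 0.197).

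BAF genes went both ways. Smarcc1 (BAF155), a scaffold subunit, had 257.5 and 311.1 CPM in the Tcf7 +/+ pair and 198.1, 184.8 and 216.4 in the Vav1-Cre libraries (-0.51 ± 0.134, edgeR's adjusted p = 0.01079). Arid2 had 257.5 and 270.5 CPM against 169.8, 192.1 and 177.5 (-0.55 ± 0.127, edgeR's adjusted p = 0.004335) and was past the test in all 14 alternatives. Arid1b, an alternative to Arid1a in canonical BAF, had 329.6 and 266.6 CPM against 387.3, 396.1 and 432.3 (0.44 ± 0.13, edgeR's adjusted p = 0.0201). None of these 3 called genes had overlapping groups, which adds no support to their calls. Smarca2 had 244 and 247.4 CPM against 335.6, 322.6 and 301, again apart (0.38 ± 0.124, edgeR's adjusted p = 0.03549), while Smarca4 had 497 and 465 CPM against 490.9, 487 and 462.3 (0 ± 0.114).

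The rise of Smarca2 was lost without any of the 3 Vav1-Cre libraries (edgeR's adjusted p = 0.07726 to 0.1489), that of Arid1b without any of these (edgeR's adjusted p = 0.053 to 0.117) or +/+ replicate 2 (0.30, edgeR's adjusted p = 0.09029), and the fall of Smarcc1 without their replicate 1 (edgeR's adjusted p = 0.05889) or 2 (edgeR's adjusted p = 0.08951). Smarca2, Arid1b and Smarcc1 also lost their calls without a filter on low counts (edgeR's adjusted p = 0.07944, 0.09009 and 0.05092). With the replicate number as a block Smarca2 and Arid1b fell short (edgeR's adjusted p = 0.1239 and 0.1354). With DESeq2 Smarca2 did so as well (DESeq2's adjusted p = 0.0705). Dhx30, which overlaps Smarcc1 on the other strand, stood at 0.15 and was not past the test. The BAF median was -0.06.

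Several marker lists moved in the same comparison. Proliferation genes summed to 3237 and 4197 CPM in the Tcf7 +/+ pair and 2440, 2447 and 2381 in the Vav1-Cre libraries, where 9 of 19 fell and 10 were not past the test (median -0.53). All 19 had log2 fold changes below 0 (-1.16 to -0.26), and 18 had an unadjusted edgeR p under 0.05. The wide +/+ pair, with replicate 2 the higher, was seen in the proliferation sum as in Ezh2, Suz12, Rnf2 and Hdac2. B-cell genes, 6 of 6 tested, summed to 158.3 and 150.5 CPM against 56.61, 43.5 and 51.74, and 5 fell. Myeloid genes, 5 of 7 tested, summed to 662.5 and 389.5 CPM against 1140, 1006 and 1100, and 3 rose. Stromal genes, 3 of 6 tested, went from 211.9 and 191.1 to 382.5, 340.7 and 360.5 CPM, and 2 rose, with the defining stromal genes Col1a1, Col3a1 and Krt5 at 0 to 3 counts a library. Dendritic genes summed to 1764 and 1277 CPM against 1794, 1804 and 1963, and 2 of 6 rose. Of 11 T-lineage and sort genes, 6 fell and 1 rose (median -1.06, range -3.93 to 0.75), with a sum of 3119 and 3030 CPM against 2985, 2513 and 2608. The falls were in the T-cell receptor genes Trac, Trdc and Trbc1, the receptor partners Cd3e and Cd3g, and Cd24a, and the rise was in Thy1. The part of these genes and cells in the members' changes was not tested.

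Within a library, the ratio of 2 subunits that take the same place in a complex does not depend on library scaling. For the PRC1 ligases, Ring1/Rnf2 per length was 0.297 and 0.355 in the Bcl11b +/+ pair, 1.03 and 0.644 in the +/N440K pair and 1.02 and 0.856 in the D/N440K pair. Its log2 was thus higher by 1.33 and 1.52, with no overlap. In the Tcf7 table it was 0.54 and 0.343 in +/+ and 0.675, 0.814 and 1.2 in the Vav1-Cre libraries, higher by 1.01 on the log2 scale. An exact two-sided permutation test gave p = 0.333 for 2 libraries against 2 and p = 0.1 for 3 against 2, in each case the smallest p that the design allows, and 10 ratios were computed in each comparison. Lack of overlap was not particular to Ring1/Rnf2. Chd3/Chd4, Smarcc1/Smarcc2, Arid1a/Arid2 and Rbbp4/Rbbp7 also lay apart from +/+ in both N440K comparisons. So did Hdac1/Hdac2 in +/N440K and Smarca2/Smarca4 in D/N440K. Their log2 differences were smaller (-0.18 to 0.61 in +/N440K and -0.07 to 0.31 in D/N440K). Arid1a/Arid2 lay apart in the Tcf7 table as well.

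The balance of the PRC2 methyltransferases moved in the Tcf7 table. Ezh1/Ezh2 per length was 0.856 and 0.729 in Tcf7 +/+ and 1.68, 1.83 and 2.05 in the Vav1-Cre libraries, a log2 difference of 1.23 (exact permutation p = 0.1, the smallest possible). In the Bcl11b table it was 0.775 to 1.06 in all 6 libraries. Among BAF genes of the Tcf7 table, Smarca2/Smarca4 went from a log2 of -2.11 ± 0.08 to -1.73 ± 0.04, Arid1a/Arid1b from 1.52 ± 0.04 to 0.96 ± 0.08 and Smarcc1/Smarcc2 from -0.64 ± 0.1 to -1.18 ± 0.09, without overlap (exact permutation p = 0.1 for each). Hdac1/Hdac2 went from 0.07 ± 0.44 to 0.99 ± 0.44 (exact permutation p = 0.2), and Chd3/Chd4 overlapped between the groups (-1.06 ± 0.08 and -1.24 ± 0.18).

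**Figure D3:**
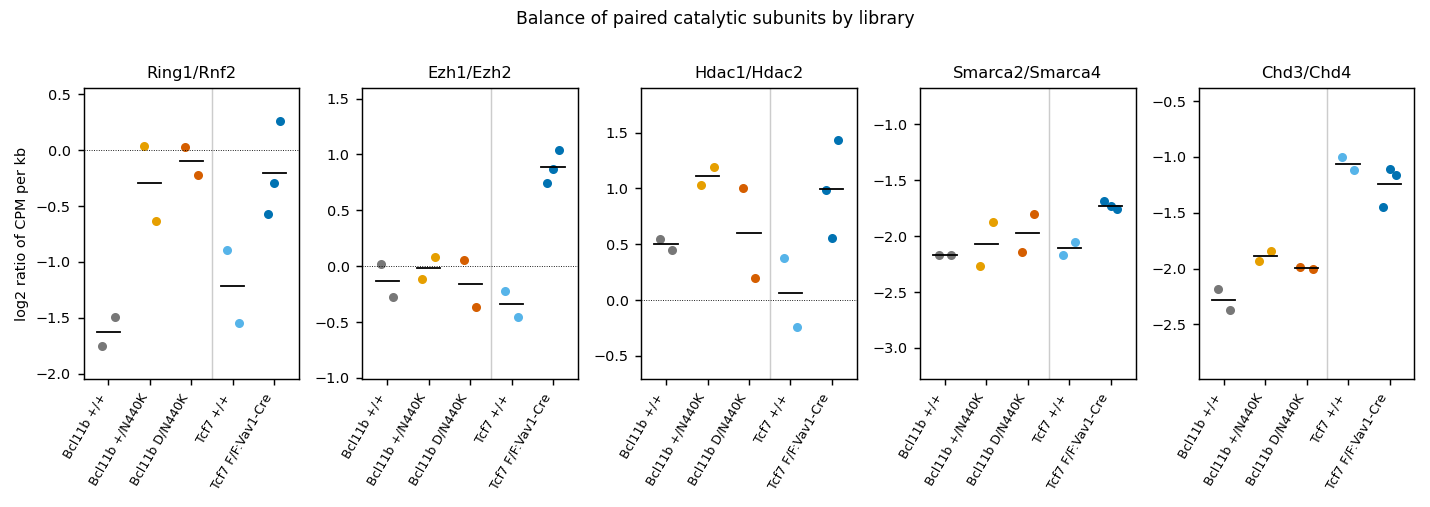
Log2 ratio of paired catalytic subunits, each in CPM per kb, by library; points are libraries, bars are group means, a dotted line marks equal levels and a grey line parts the tables. Ring1/Rnf2 has a mean of -1.62 ± 0.18 in Bcl11b +/+, -0.30 ± 0.48 in +/N440K and -0.10 ± 0.18 in D/N440K, and Ezh1/Ezh2 lies above 0 in every Vav1-Cre library (0.89 ± 0.15).

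Whether the D/N440K effect differed from that in the Vav1-Cre libraries was tested as a difference of the 2 contrasts in 1 edgeR model over 11 libraries. It was past the test in 6 of 43 members, 4 higher and 2 lower in D/N440K, which is 14%, and in 11.5% of all genes (5.66% higher and 5.83% lower). The largest difference among the members, -1.26 in a PRC1 gene, was not past the test. Among the 6 called, Ezh2 had the largest, at 1.01 ± 0.234 (edgeR's adjusted p = 0.004173), from 0.06 in D/N440K and -0.95 in the Tcf7 comparison. Its call held in all 18 alternatives. Suz12 (0.78 ± 0.213, edgeR's adjusted p = 0.01515), Chd3 (0.74 ± 0.183, edgeR's adjusted p = 0.007403) and Smarcc1 (0.54 ± 0.162, edgeR's adjusted p = 0.02788) likewise fell in the Tcf7 comparison and were not called in D/N440K. Mta3 (-0.58 ± 0.179, edgeR's adjusted p = 0.03488) and Arid1b (-0.54 ± 0.169, edgeR's adjusted p = 0.03525) differed the other way. For Rnf2 no difference was shown (0.25), nor for Ring1 (0.67) or Cbx7 (0.23). Of 19 proliferation genes, 8 were past the same test, all higher in D/N440K, and their part in the differences of Ezh2 and the others was not tested. Age and table go with the genotype here, at postnatal day 0 and 7, and cannot be told apart from it.

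Chd3 lost this call without Bcl11b +/+ replicate 2 (edgeR's adjusted p = 0.06668) or D/N440K replicate 1 (edgeR's adjusted p = 0.05276). Suz12 lost it without Bcl11b +/+ replicate 1 or 2 (edgeR's adjusted p = 0.06975 and 0.0603), D/N440K replicate 1 (edgeR's adjusted p = 0.1389) or Tcf7 +/+ replicate 2 (0.46, edgeR's adjusted p = 0.08145). Mta3 lost it in 9 of 18 alternatives and Smarcc1 and Arid1b in 8 of 18 each, with edgeR or DESeq2 adjusted p up to 0.1603, 0.1315 and 0.2453.

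**Figure D4:**
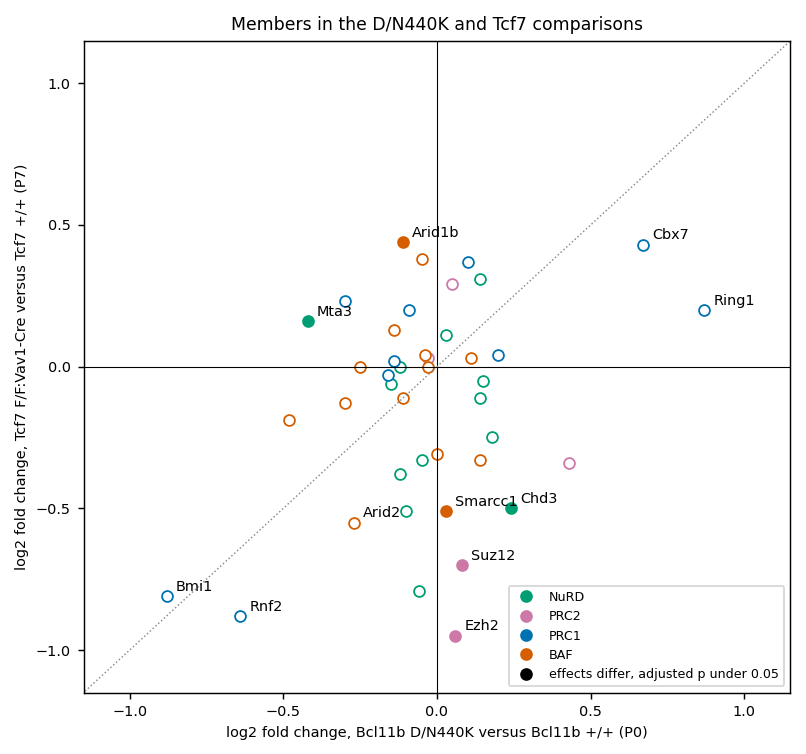
Log2 fold change of each member in D/N440K against Bcl11b +/+ (x axis, postnatal day 0) and in the Vav1-Cre libraries against Tcf7 +/+ (y axis, postnatal day 7), on linear axes; the dotted line marks equal effects. Filled points passed the edgeR test of the difference. Ezh2 and Suz12 lie near 0 on the x axis and at -0.95 and -0.70 on the y axis, and Rnf2 and Bmi1 lie low on both.

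Across the 4 comparisons, 16 of the 43 members were called at least once and 27 in none. Rnf2 was called in 3, Ring1, Cbx7 and Arid2 in 2 each, and 12 members in 1. The 27 others include Chd4, Mta2, Mbd2, Mbd3, Gatad2a, Gatad2b, Hdac1, Rbbp4 and Rbbp7 of NuRD, Ezh1, Eed and Jarid2 of PRC2, 7 PRC1 genes and 8 BAF genes. Their log2 fold changes ran from -0.32 (Smarce1) to 0.27 (Mbd2) in +/N440K and from -0.48 (Smarce1) to 0.43 (Eed) in D/N440K. In the Tcf7 comparison they ran from -0.38 (Rbbp7) to 0.49 (Pcgf1), with Pcgf1 at 7.325 and 7.891 CPM in the Tcf7 +/+ pair and 12.94, 9.605 and 10.01 in the other group. Their SEs were up to 0.316 in the comparisons with Bcl11b +/+ and 0.37 in the Tcf7 comparison. Changes of that order were not detectable in the least abundant of them. An SE is not a limit of detection, and larger changes could also go uncalled, as Pcgf1 did at 0.49.

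Genes of the same complexes outside the 43, and genes that oppose Polycomb, formed a list of 51, of which 45 were tested. In +/N440K 2 rose and 5 fell, where edgeR called 4.79% of all tested genes higher and 5.3% lower. In D/N440K likewise 2 rose and 5 fell, where edgeR called 6.1% higher and 6.31% lower. The falls include Bcl11b, the gene that carries N440K. Pcgf2 (MEL-18), the PCGF relative of Bmi1 in canonical PRC1, had 17.39 and 21.59 CPM in the +/+ pair, 47.33 and 53.3 in the +/N440K pair and 42.82 and 46.82 in the D/N440K pair. It rose by 1.34 ± 0.248 (edgeR's adjusted p = 0.0001312) and 1.18 ± 0.256 (edgeR's adjusted p = 0.0008312). The mutant libraries thus held more Pcgf2 than any +/+ library, and the second of these calls was lost with DESeq2 (DESeq2's adjusted p = 0.05214). Zfpm1 (FOG1), a NuRD-binding cofactor, also rose (0.38 and 0.45), from 158.6 and 150.3 CPM in +/+ to 178.7 to 226 in the 4 mutant libraries. In +/N440K that call was lost without either +/+ library (edgeR's adjusted p = 0.0747 and 0.2373) or +/N440K replicate 2 (0.22, edgeR's adjusted p = 0.4491), and in D/N440K without +/+ replicate 2 (edgeR's adjusted p = 0.08152). Phf10 (-0.77, edgeR's adjusted p = 0.04605) in +/N440K and Zfp592 (-0.34, edgeR's adjusted p = 0.02378) in D/N440K complete the falls with Auts2, Bcl7a, Bcl11a and Bcl11b. Phf10 lost its call in 10 of 16 alternatives, among them each of the 4 libraries compared left out (edgeR's adjusted p = 0.07828 to 0.2247), and Zfp592 in 3 of 16, among them without +/+ replicate 2 (-0.30, edgeR's adjusted p = 0.1795) or D/N440K replicate 2 (-0.25, edgeR's adjusted p = 0.2973).

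Auts2, a subunit of PRC1 with Pcgf5 or Pcgf3, moved most and in opposite directions in the 2 tables. Its level was 66.5 and 63.93 CPM in the Bcl11b +/+ pair, 16.32 and 11.84 in the +/N440K pair and 11.13 and 18.32 in the D/N440K pair. It fell by 2.18 (SE 0.262, edgeR's adjusted p = 5.462e-08) and 2.16 (SE 0.265, edgeR's adjusted p = 4.597e-08). At postnatal day 7 it had 15.78 and 21.98 CPM in the Tcf7 +/+ pair and 51.75, 56.5 and 49.51 in the Vav1-Cre libraries, a rise of 1.48 ± 0.233 (edgeR's adjusted p = 0.0001644). Groups did not overlap in any of the 3 comparisons, and all 3 calls held in every alternative run.

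Bcl7a, a BAF accessory subunit, was lower in all 3. It had 102.3 and 75.55 CPM in the Bcl11b +/+ pair, 50.6 and 45.4 in the +/N440K pair, 47.96 and 31.55 in the D/N440K pair, 66.49 and 57.49 in Tcf7 +/+, and 29.11, 19.78 and 31.71 in the Vav1-Cre libraries. The log2 fold changes were -0.86, -1.12 and -1.21 (edgeR's adjusted p = 0.001288, 5.461e-05 and 0.0006878), the first lost without +/+ replicate 1 (-0.65, edgeR's adjusted p = 0.0698) and with DESeq2 (DESeq2's adjusted p = 0.1074). Bcl11b and Bcl11a, themselves BAF accessory genes, were among those that fell in the N440K libraries (-1.48 and -1.10 in +/N440K, -1.70 and -0.67 in D/N440K). The last of these was lost without D/N440K replicate 1 (-0.59, edgeR's adjusted p = 0.05822) and with DESeq2 (DESeq2's adjusted p = 0.1614).

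In the Tcf7 comparison 5 of these 45 genes rose and 4 fell, where edgeR called 12% of all tested genes higher and 11.1% lower. After Auts2, the rises were in Phf1 (0.91), a PRC2 accessory subunit, Yaf2 (0.86), a subunit of variant PRC1, Bicral (0.43), of the BAF form without ARID subunits, and Aebp2 (0.40), a PRC2 accessory subunit. Besides Bcl7a, the falls were in Mtf2 (-0.76), another PRC2 accessory subunit, Usp7 (-0.58), a deubiquitinase found with variant PRC1, and Bcl11b (-0.48). Phf1 went from 16.9 and 13.53 CPM to 29.11, 24.3 and 32.82, while Mtf2 went from 65.36 and 97.51 to 49.33, 49.72 and 45.06, with no overlap in either. Without +/+ replicate 2 Phf1 (0.76, edgeR's adjusted p = 0.08638), Mtf2 (-0.45, edgeR's adjusted p = 0.1488), Usp7 (-0.34, edgeR's adjusted p = 0.06007) and Bicral (0.34, edgeR's adjusted p = 0.09724) lost their calls, and Aebp2 lost its call without +/+ replicate 1 (0.19, edgeR's adjusted p = 0.2435). Without replicate 3 of the Vav1-Cre libraries all 7 of these genes other than Auts2 and Bcl7a lost theirs (edgeR's adjusted p = 0.05141 to 0.1341). Between D/N440K and +/N440K 0 of the 45 passed by edgeR, DESeq2 or limma-voom, where edgeR called 0.532% of all tested genes. Of these 45, 2 of the BAF genes and 1 of the NuRD genes had an unadjusted edgeR p under 0.05.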

How the data were processed

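RNA from sorted thymocytes was made into libraries by a modified RamDA-seq protocol (total RNA, oligo(dT) and not-so-random primers, Tn5 tagmentation, PCR, no molecular identifiers), per the labels' protocols. The submitters' processing notes name fastp 0.20.0, STAR 2.7.3a, SAMtools 1.9, Picard 2.21.1, HTSeq 0.11.2, edgeR and the builds mm10 and GRCm38. The authors deposited raw counts per gene and CPM (counts scaled to normalised library sizes) in a separate table for each experiment, and the authors' CPM were used as levels. Every CPM value was a whole read count within a tolerance of 0.001 on a scale fixed for its library. The CPM tables held the same 10910 and 12366 genes that edgeR's filterByExpr keeps from the counts. Whether counting used strand is not given in the sources used here.

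The members and gene lists were chosen with earlier results of these data known. Counts were tested in R 4.3.3 with edgeR 4.0.16 (TMM, filterByExpr with a minimum count of 10, 1 coefficient per group, quasi-likelihood F test, Benjamini-Hochberg over all genes tested, threshold 0.05), with 3 residual degrees of freedom in each table and 6 in the joint model. The difference between the D/N440K and Tcf7 effects was fitted over 11 libraries. Named are members past the test, catalytic subunits, and the other complex genes past the test. Alternatives were DESeq2 1.42.0, limma 3.58.1 (voom, or log2 of the authors' CPM plus 1), other normalisations and filters, a replicate block and each library left out. A test on the reads recovered from the CPM was added after the data were seen and called 5, 5, 0 and 11 members. It used the same counts of the same genes as the main fit, so it adds no support. It is among the 14 or 16 alternatives counted for calls within a table. Paralog ratios used CPM per kb of merged GENCODE M21 exons. Figures were drawn with Python 3.11.15 and matplotlib 3.10.9. Of the 43 members, 18 have exons that overlap another gene's, 15 of them on the opposite strand and 3 on the same strand. Depth limits precision: a member had 78 to 6748 counts over a table.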

Additional observations from a re-analysis of the deposited data

Results flagged for a closer look

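The 10 results below were singled out because the effect in D/N440K and that in the Vav1-Cre libraries differed in the edgeR test of the difference itself, given as the first effect minus the second on the log2 scale. Genotype, age and table changed together between the 2 effects and cannot be told apart.

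Among the members, Ezh2 differed by 1.01 (0.06 against -0.95, edgeR adjusted p = 0.004173), Suz12 by 0.78 (0.08 against -0.70, edgeR adjusted p = 0.01515), Chd3 by 0.74 (0.24 against -0.50, edgeR adjusted p = 0.007403) and Smarcc1 by 0.54 (0.03 against -0.51, edgeR adjusted p = 0.02788). Mta3 differed by -0.58 (-0.42 against 0.16, edgeR adjusted p = 0.03488) and Arid1b by -0.54 (-0.11 against 0.44, edgeR adjusted p = 0.03525).

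Among the other complex genes, Auts2, a PRC1 subunit, differed by -3.64 (-2.16 against 1.48, edgeR adjusted p = 4.172e-08) and Bcl11b by -1.21 (-1.70 against -0.48, edgeR adjusted p = 0.0001094). Epop, a PRC2 accessory subunit, differed by 1.57 (0.54 against -1.03, edgeR adjusted p = 0.03657). Its levels at postnatal day 7 were 9.016 and 14.09 CPM in Tcf7 +/+ and 5.661, 6.78 and 4.451 in the Vav1-Cre libraries. Yaf2, of variant PRC1, differed by -0.91 (-0.05 against 0.86, edgeR adjusted p = 0.04763), from 25.92 and 24.24 CPM to 43.67, 42.94 and 49.51 in the same libraries. Epop lost its call in 9 of 18 alternatives and Yaf2 in 14 of 18, while Auts2 and Bcl11b lost it in 0 of 18.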

How the results depend on the processing

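Of 27 calls on members, 5 were past the test in every alternative run: Cbx7 in both N440K comparisons, Ezh2 and Arid2 in the Tcf7 comparison, and Ezh2 in the difference of effects. Over 422 alternatives to these calls 319 were past the test, 103 were not and 0 reversed direction. Of the 319, 21 were fits on the reads recovered from the CPM. Those reads are the same counts as in the main fit, so their outcome was all but fixed in advance. DESeq2 called 1 member in +/N440K, 1 in D/N440K and 3 in the difference of effects, and 357, 528 and 898 genes there, with 4 between D/N440K and +/N440K. Without a filter on low counts 4 members and 1606 genes were called in the Tcf7 comparison and 91 genes between D/N440K and +/N440K. A stricter filter put the PRC1 median in +/N440K at 0.09. The cause of these shifts was not tested.

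Replicate numbers are shared between groups in the labels. Same-numbered libraries did not deviate together (correlations of -0.07, -0.03 and 0 at postnatal day 0, and -0.03 at day 7). At postnatal day 0 the replicates differed by little more than sampling noise (chi-square per degree of freedom 1.14 to 1.42), which can hide a shared deviation. These correlations therefore cannot exclude pairing. With the replicate block 5 members were called in the Tcf7 comparison and 37 genes between D/N440K and +/N440K. The block and the fit on the authors' CPM were not run for the difference of effects, whose tables were normalised apart.

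With each library left out in turn, members called ranged from 2 to 5 in +/N440K, 1 to 5 in D/N440K, 4 to 19 in the Tcf7 comparison and 1 to 12 in the difference of effects. Genes called ranged from 726 to 1121 in +/N440K, 25 to 91 between D/N440K and +/N440K, 1700 to 4612 in the Tcf7 comparison and 861 to 2642 in the difference of effects. Medians in +/N440K ranged from -0.06 to 0.02 (NuRD), -0.02 to 0.21 (PRC1) and -0.14 to -0.07 (BAF). In D/N440K they ranged from -0.05 to -0.01 (NuRD), 0.06 to 0.15 (PRC2), -0.17 to -0.11 (PRC1) and -0.13 to -0.03 (BAF). Between D/N440K and +/N440K they ranged from -0.05 to -0.02 (NuRD), 0.07 to 0.18 (PRC2) and -0.10 to 0 (PRC1). In the Tcf7 comparison they ranged from -0.23 to -0.06 (NuRD), -0.59 to -0.03 (PRC2), 0.08 to 0.22 (PRC1) and -0.07 to 0.04 (BAF), and the Smarca2/Smarca4 difference from 0.32 to 0.44. A group reduced to 1 library took its spread from the other groups. With 2 or 3 libraries a group, differences within the standard errors given were not detectable, and larger ones could also be missed.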
